A study of Mus musculus with 12 samples.

Results

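The genes that encode the subunits of the proteasome, with its activators and the chaperones that assemble its cap, were followed in mouse liver during an acute endoplasmic reticulum (ER) stress. The members were every gene whose symbol reads Psma, Psmb, Psmc, Psmd or Psme followed by a number and that owned at least 1 probeset annotated to that gene alone. This rule found 44 of 18193 genes, and it used no measured value. Of these, 42 fell into a class by the known place of their protein, and Psmc3ip and Psme3ip1, which share the beginning of the symbol but encode no subunit, were kept apart. Psme2 had only a probeset that it shared with another gene and was not measured by this rule.

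Total RNA of whole liver was hybridised to 1-colour Affymetrix mouse arrays, 1 animal per array, in 4 groups of 3 animals. Atf6a-/- mice, which lack the ER stress sensor ATF6α, and wild-type (Atf6a +/+) mice received an intraperitoneal injection 8 h before they were killed. The groups were Atf6a-/- animals challenged with 2 mg/kg tunicamycin (TM), Atf6a-/- animals given vehicle, wild-type animals challenged with the same dose of TM, and wild-type animals given vehicle. The vehicle was 150 mM dextrose, in which TM was also dissolved. All animals were of variable age and gender and were fasted before they were killed, and the strain background was not given in the sources used here. TM blocks N-linked glycosylation, so newly made glycoproteins misfold in the ER, and ATF6α is a transcription factor held in the ER membrane that is cut free under such stress. The comparisons ask how the proteasome genes answered TM in each genotype, how the genotypes differed under TM and under vehicle, and whether the answer to TM depended on the genotype.

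The proteasome degrades proteins tagged with ubiquitin, among them ER proteins that fail to fold and are drawn back into the cytosol. Its 20S core is a stack of rings of alpha and beta subunits with the cutting sites inside the beta rings, and the 19S cap recognises, unfolds and feeds in the substrate through a ring of ATPases. Interferon-responsive cells replace the catalytic beta subunits with the inducible subunits LMP7 (Psmb8), LMP2 (Psmb9) and MECL-1 (Psmb10), which gives the immunoproteasome, known for producing peptides for MHC class I, while other activators (Psme1 to Psme4) can dock in place of the cap.

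Levels are given as the deposited log2 values, and a difference of 1 on this scale is a doubling. A gene was represented by its brightest single-gene probeset. Differences were tested with limma over all 45037 non-control probesets, p-values were Benjamini-Hochberg adjusted over that whole table, and a gene was called at an adjusted p under 0.05 together with a change of more than 1.5-fold (0.58 on the log2 scale). The medians of the 12 arrays lay between 4.98 and 5.11. The 5 measured hepatocyte markers had a summed linear intensity of 105568 to 112239 on every array, a sum that Alb, Apoa1, Ttr and Cps1 carried, and albumin (Alb) was among the brightest signals of the arrays, with a mean level of 14.91. The marker Hnf4a, a transcription factor of hepatocytes, was called higher by TM in Atf6a-/- animals (0.94, limma adjusted p = 6.0e-04) and not in wild-type animals (0.36, adjusted p = 0.145). The difference between the genotypes in the Hnf4a response was 0.58 and was not called. The probeset of the targeted gene, Atf6, read 10.19, 9.76 and 10.50 in Atf6a-/- TM livers, 7.03, 7.15 and 7.79 in Atf6a-/- vehicle livers, 10.75, 11.16 and 11.01 in wild-type TM livers, and 8.74, 9.47 and 8.90 in wild-type vehicle livers. It lay below wild-type in Atf6a-/- animals under either injection without overlap, but neither difference was called (-0.82, limma Benjamini-Hochberg adjusted p = 0.0905 under TM, and -1.71, 0.184 under vehicle), and which part of the transcript it reads was not analysed here. Both differences were called with the arrays centred on Btf3 and Ppia (-0.80, adjusted p = 0.0400, and -1.65, adjusted p = 0.0311) and without the 4 arrays with Y-linked signal described next (-0.74, adjusted p = 0.0173, and -1.73, adjusted p = 0.00304), where the difference of responses was called too (0.99, adjusted p = 0.0449). The vehicle difference was called without wild-type vehicle animal 2 as well (-1.49, adjusted p = 0.0419). Creld2, an ER protein gene known to depend on ATF6α, answered TM by 1.96 in Atf6a-/- and by 4.87 in wild-type animals. On 1 array of each group the Y-linked gene Eif2s3y was bright (8.21 or more, against 3.44 or less on the rest): Atf6a-/- TM animal 2, Atf6a-/- vehicle animal 3, wild-type TM animal 1 and wild-type vehicle animal 2.

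After TM the inducible subunits were called lower in both genotypes, and none of the standard subunits was called in either by limma. In Atf6a-/- animals TM was followed by lower levels of Psmb8, Psmb9, Psmb10 and Psme1 and higher levels of Psmd9, Psme3 and Psme3ip1. In wild-type animals Psmb8, Psmb9 and Psmb10 fell and Psme3 and Psme3ip1 rose. The standard subunits, 31 in all, are those of the constitutive core and the cap. When the methods' t-test was adjusted in the same way, the calls of Psmb8 (adjusted p = 0.131), Psmb9 (0.152), Psmb10 (0.0599) and Psme3 (0.123) were lost in wild-type animals, and those of Psmb8 (0.0743), Psmb9 (0.0592), Psme3 (0.129) and Psmd9 (0.0696) in Atf6a-/- animals. Of all 44 members, 3 were called higher and 4 lower in Atf6a-/- animals, beside 13.1% of all genes that passed upward there and 8.21% downward. Wild-type animals had 2 members called higher and 3 lower, beside 8.92% and 6.90% of all genes. TM and vehicle livers did not overlap for 7 members that lay higher and 12 that lay lower after TM in Atf6a-/- animals, beside 20.8% and 29.6% of all genes, and for 4 and 11 members in wild-type animals, beside 16.8% and 22.5%. The members' shares thus lie near or under the background, and the results are in which members changed. The median change over the 42 was -0.11 in Atf6a-/- and -0.078 in wild-type animals, beside -0.10 and -0.060 over all genes.

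**Figure D1:**
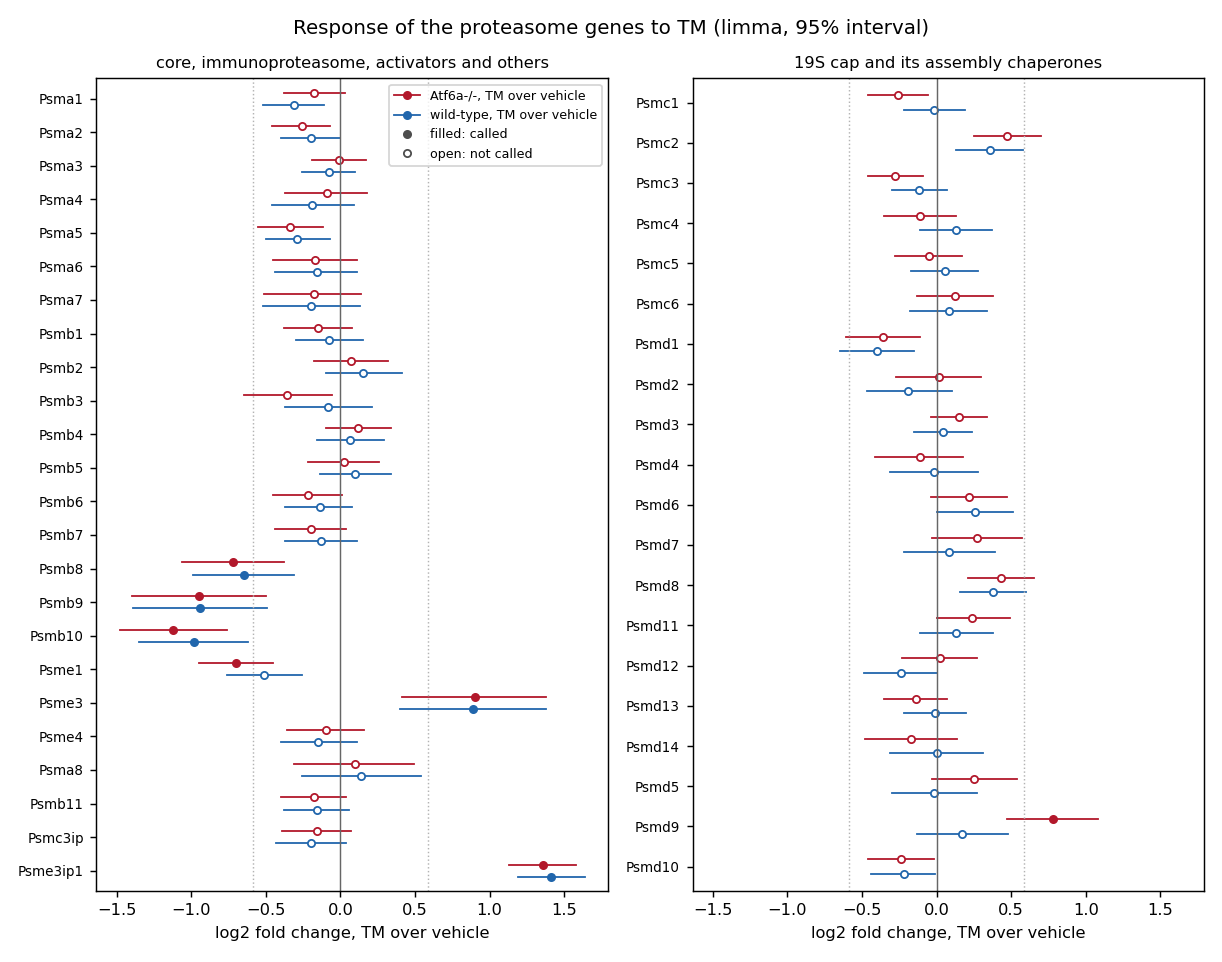
Response of the 44 members to TM, given as log2 fold change (TM over vehicle, horizontal axis) with the 95% interval of limma, in Atf6a-/- animals (red) and wild-type animals (blue), 3 animals per group. Filled points were called, open points were not, and dotted lines mark a 1.5-fold change. The immunoproteasome subunits lie at -1.12 to -0.65, while the 31 standard subunits lie between -0.40 and 0.47.

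The inducible beta subunits carried the clearest loss. The 150 bases before the transcription start of their genes are shown because Psmb8 and Psmb9 are textbook targets of interferon signalling and the 3 genes moved together. They come from RefSeq on GRCm38.p6 and are written 5′ to 3′ on the strand of the gene. Capitals mark, in Psmb8, a gamma-interferon-activated site (GAS, TTCNNNGAA) 97 to 89 bases before the start and, in Psmb9, a CCAAT box read on the other strand 8 to 4 bases before the start. The Psmb10 stretch held none of the motifs searched.
Psmb8 promoter (chr17:34198045-34198194, + strand): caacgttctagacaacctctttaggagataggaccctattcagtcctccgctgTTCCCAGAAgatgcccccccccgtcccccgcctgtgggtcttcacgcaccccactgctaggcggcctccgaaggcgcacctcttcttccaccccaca
Psmb9 promoter (chr17:34187331-34187480, minus strand): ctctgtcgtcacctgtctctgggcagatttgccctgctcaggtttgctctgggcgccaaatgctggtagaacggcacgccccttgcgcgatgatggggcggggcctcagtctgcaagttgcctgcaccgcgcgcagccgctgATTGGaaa
Psmb10 promoter (chr8:105938393-105938542, minus strand): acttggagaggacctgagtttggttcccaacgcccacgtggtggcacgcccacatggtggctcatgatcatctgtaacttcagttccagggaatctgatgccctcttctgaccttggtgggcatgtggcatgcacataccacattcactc

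Psmb8 (LMP7) takes the place of Psmb5 in the ring. Its level was 8.76, 8.77 and 8.82 in Atf6a-/- TM livers and 9.69, 9.67 and 9.16 in Atf6a-/- vehicle livers, and 8.99, 9.09 and 9.08 in wild-type TM livers and 9.70, 9.41 and 10 in wild-type vehicle livers. Every TM liver thus lay below every vehicle liver, the TM groups were tight, and the lowest vehicle livers were animal 3 of Atf6a-/- and animal 2 of wild-type. The change was -0.72 (SE 0.16, 0.606-fold, limma adjusted p = 0.00415) in Atf6a-/- and -0.65 (SE 0.16, 0.639-fold, adjusted p = 0.0116) in wild-type animals. The wild-type call rested on wild-type vehicle animal 3, the highest of its group, without which it was -0.50 (adjusted p = 0.0507). With the mean of both Psmb8 probesets, the dimmer of which had a mean level of 3.66, the changes of -0.53 and -0.43 stayed under the fold threshold. For all 3 inducible subunits the groups did not overlap in either genotype.

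Psmb9 (LMP2), the counterpart of Psmb6, lies head to head with Tap1, which encodes a subunit of the peptide transporter of the ER, with 226 bases between their starts. Psmb9 read 7.81, 8.20 and 7.82 in Atf6a-/- TM livers against 9.11, 8.98 and 8.60 in Atf6a-/- vehicle livers. It read 8.41, 8.23 and 8.26 in wild-type TM livers against 9.50, 8.70 and 9.52 in wild-type vehicle livers. The TM livers were again all below the vehicle livers of their genotype, with wild-type vehicle animal 2 the nearest. The change was -0.95 (SE 0.21, 0.516-fold, adjusted p = 0.00416) in Atf6a-/- and -0.94 (SE 0.21, 0.522-fold, adjusted p = 0.00668) in wild-type animals. Its neighbour Tap1 differed by 0.29 (adjusted p = 0.265) and -0.091 (adjusted p = 0.813), so only 1 of this head-to-head pair was called.

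Psmb10 (MECL-1), the counterpart of Psmb7, had the largest change of the 3 in both genotypes. It read 8.93, 9.08 and 9.0 in Atf6a-/- TM livers against 10.28, 10.35 and 9.72 in Atf6a-/- vehicle livers, and 9.26, 9.03 and 9.08 in wild-type TM livers against 10.20, 9.81 and 10.31 in wild-type vehicle livers. The smallest gap between a TM and a vehicle liver was again to Atf6a-/- vehicle animal 3 and wild-type vehicle animal 2. Psmb10 fell by 1.12 (SE 0.17, adjusted p = 3.1e-04) in Atf6a-/- and by 0.98 (SE 0.17, adjusted p = 0.00120) in wild-type animals, so that about 0.460 and 0.506 of the vehicle signal was left.

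The constitutive partners stayed within narrow bounds. Psmb5, the chymotrypsin-like subunit, read 11.18, 11.57 and 11.47 in Atf6a-/- TM against 11.31, 11.34 and 11.49 in Atf6a-/- vehicle livers, and 11.40, 11.50 and 11.33 in wild-type TM against 11.20, 11.37 and 11.36 in wild-type vehicle livers. The groups overlapped in both genotypes, with differences of 0.021 (95% interval -0.22 to 0.26) and 0.10 (-0.14 to 0.34). Psmb6, the caspase-like subunit, differed by -0.22 (-0.45 to 0.01) and -0.14 (-0.37 to 0.08), and Psmb7, the trypsin-like subunit, by -0.20 (-0.44 to 0.04) and -0.13 (-0.37 to 0.11). None of these passed the test, with adjusted p from 0.138 to 0.906.

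Within each liver, the log2 difference of an inducible subunit and its partner was set to 0 at the mean of the wild-type vehicle livers, since probesets of different genes cannot be compared in level. Psmb10 minus Psmb7 averaged -0.88 in Atf6a-/- TM, 0.04 in Atf6a-/- vehicle and -0.85 in wild-type TM livers, and all 6 TM livers (-1.04 to -0.71) lay below all 6 vehicle livers (-0.46 to 0.29). Psmb9 minus Psmb6 averaged -1.16 in Atf6a-/- TM, -0.43 in Atf6a-/- vehicle and -0.79 in wild-type TM livers. Psmb8 minus Psmb5 averaged -1.01, -0.27 and -0.75 in the same groups. For these 2 pairs the TM and vehicle livers overlapped across genotypes, at -1.29 to -0.66 against -0.75 to 0.36 for Psmb9 and at -1.19 to -0.64 against -0.72 to 0.25 for Psmb8. The overlapping vehicle livers were among those with Y-linked signal.

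**Figure D2:**
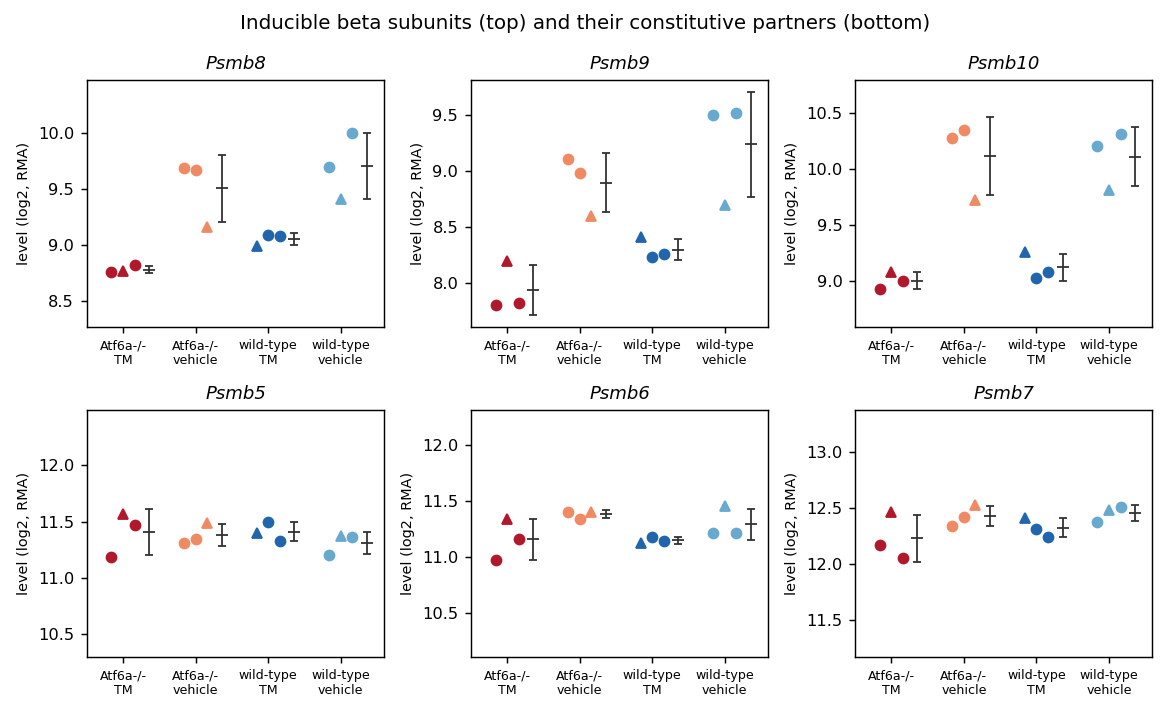
Levels (log2 RMA, vertical axis) of the inducible beta subunits Psmb8, Psmb9 and Psmb10 and of their constitutive partners Psmb5, Psmb6 and Psmb7 in each liver. Groups run Atf6a-/- TM, Atf6a-/- vehicle, wild-type TM, wild-type vehicle, bars give the mean ± SD (n = 3), and triangles mark the arrays with Y-linked signal. Each inducible subunit is lower in all TM livers than in the vehicle livers of the same genotype, and the partners show no such step.

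The median over the 3 inducible subunits, as change from the wild-type vehicle mean of each gene, was -1.18, -1.03 and -1.11 in Atf6a-/- TM livers against -0.02, -0.03 and -0.54 in Atf6a-/- vehicle livers. It was -0.83, -1.01 and -0.97 in wild-type TM livers against 0.10, -0.30 and 0.28 in wild-type vehicle livers. The vehicle livers at -0.54 and -0.30 were both arrays with Y-linked signal. Without the 4 such arrays, the class median of the TM change was -1.23 in Atf6a-/- and -1.20 in wild-type animals, beside -0.95 and -0.94 with them, and the same numbers of members were called in each direction.

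Immunoproteasome subunits are abundant in immune cells, so the markers of those cells are given beside them. Of 26 measured markers of macrophages, lymphocytes, neutrophils, dendritic cells and leukocytes in general, 6 were called lower by TM in Atf6a-/- animals (3 to 8 under the other scalings), with a median of -0.42 and all 26 below 0 (24 under quantile and under cyclic loess normalization). In wild-type animals 0 were called by limma (6 at an unadjusted p under 0.05, 0 under cyclic loess normalization and 1 under quantile normalization), with a median of -0.29 and 24 of 26 below 0. Over all genes, 8.21% and 6.90% were called lower in Atf6a-/- and wild-type animals, and 64.1% and 60.6% lay below 0. Without the arrays with Y-linked signal, 9 and 10 of the 26 were called lower. Their summed linear intensity was 5961 to 8617 in Atf6a-/- TM, 8446 to 12962 in Atf6a-/- vehicle, 8561 to 9608 in wild-type TM and 7951 to 14299 in wild-type vehicle livers. Ptprc, the pan-leukocyte marker CD45, differed by -0.95 (adjusted p = 0.0266) in Atf6a-/- and -0.89 (adjusted p = 0.0506) in wild-type animals. The macrophage markers Csf1r and Clec4f were bright, with mean levels of 11.37 and 10.31, while the T, B and NK cell markers averaged 3.76 to 6.52. For other cells of the liver, the medians over 4 measured markers each in Atf6a-/- and wild-type animals were -0.27 and -0.29 for endothelial cells, -0.36 and -0.33 for stellate cells and -0.34 and -0.20 for cholangiocytes. Kdr (endothelial) was under the fold threshold in Atf6a-/- animals (-0.52, adjusted p = 0.0194) and called lower in the wild-type (-0.65, adjusted p = 0.00802). Lrat (stellate) was called lower in both (-1.54, adjusted p = 6.6e-04, in Atf6a-/- and -0.88, adjusted p = 0.0305, in wild-type animals). Krt19 (cholangiocyte) was called lower in Atf6a-/- animals (-0.73, adjusted p = 0.00339, beside -0.48 in wild-type animals). Kdr, Lrat and Krt19 were each the lowest of their 4 markers in both genotypes and were named after their values were seen. Above 0 lay 1 endothelial marker in Atf6a-/- animals (Pecam1, 0.15) and 0 in wild-type animals. Among the stellate markers 1 lay above 0 in each genotype (Dcn, 0.05 and 0.01), and among the cholangiocyte markers 0. The part of the cell types of these lists in the fall of Psmb8, Psmb9 and Psmb10 was not tested. In RNA of whole liver, fewer cells of a type and less RNA per cell cannot be told apart.

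**Figure D3:**
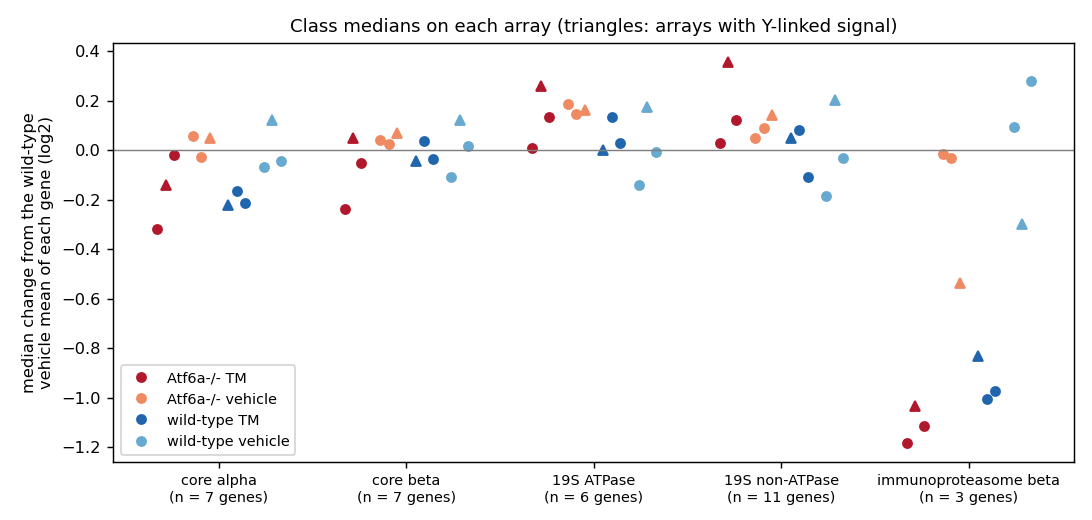
Median change from the wild-type vehicle mean of each gene (log2, vertical axis) over the members of each class on each of the 12 arrays, by group, with triangles for the arrays with Y-linked signal. The immunoproteasome class separates TM from vehicle livers (-1.18 to -0.83 against -0.54 to 0.28), while the core and cap classes lie between -0.32 and 0.36 on all arrays.

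From 17 genes of interferon response and antigen processing, 16 were measured. TM was followed by a lower call for 7 of them in Atf6a-/- and 6 in wild-type animals and by a higher call for 0 in either, with medians of -0.62 and -0.63. Over all genes, 8.21% and 6.90% were called lower, and 13.1% and 8.92% higher. Of the 16, 14 and 15 lay below 0, beside 64.1% and 60.6% of all genes. Without the arrays with Y-linked signal the counts of lower calls were 8 and 10. Igtp, an interferon-inducible GTPase, read 7.88, 7.66 and 7.82 in Atf6a-/- TM against 10.68, 10.84 and 9.89 in Atf6a-/- vehicle livers, and 7.82, 7.74 and 7.76 in wild-type TM against 10.76, 9.59 and 10.32 in wild-type vehicle livers. The TM livers of both genotypes sat at 1 common low level far below every vehicle liver, with changes of -2.68 (adjusted p = 1.5e-05) and -2.45 (adjusted p = 4.5e-05). Ifi47, of the same GTPase family, changed by -2.40 (adjusted p = 2.6e-06) and -1.96 (adjusted p = 1.7e-05).

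Further genes of that list are named after their values were seen. Irf1, a transcription factor that drives interferon-responsive promoters, read 8.25, 8.21 and 8.24 in Atf6a-/- TM against 9.35, 9.81 and 9.07 in Atf6a-/- vehicle livers, and 8.01, 8.18 and 8.04 in wild-type TM against 9.58, 9.13 and 9.73 in wild-type vehicle livers. Every TM liver was below every vehicle liver, by -1.18 (adjusted p = 3.4e-04) and -1.40 (adjusted p = 1.4e-04) on average. Nlrc5, the transactivator of MHC class I genes, changed by -1.39 (adjusted p = 0.00574) and -1.72 (adjusted p = 0.00211). Tapbp (tapasin, which loads peptide onto MHC class I) and Erap1 (which trims such peptides in the ER) were also called lower in both genotypes, by -0.89 and -0.62 in Atf6a-/- and -0.64 and -0.71 in wild-type animals. The MHC class I chains H2-K1 and H2-D1, B2m, Tap1 and Tap2 were not called, and H2-K1 and H2-D1 differed by -0.063 to -0.035. The rest of the list was Cxcl9, Cxcl10, Gbp2, Cd74 and Irf8. None of these was called in wild-type animals, where Irf8 was the highest of the list at 0.01. The remaining lower call in Atf6a-/- animals was among them.

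Among the activators, Psme1 and Psme3 went opposite ways. Psme1 (PA28α), an interferon-inducible subunit of the ring that opens the core for peptide production, read 9.87, 10.20 and 10.02 in Atf6a-/- TM livers against 10.60, 10.82 and 10.77 in Atf6a-/- vehicle livers, and 10.40, 10.10 and 10.44 in wild-type TM livers against 10.91, 10.77 and 10.78 in wild-type vehicle livers. All TM livers were below all vehicle livers. The change was -0.70 (SE 0.12, 0.615-fold, adjusted p = 6.8e-04) in Atf6a-/- animals, and in wild-type animals it passed the p threshold but not the fold threshold (-0.51, SE 0.12, 0.703-fold, adjusted p = 0.00845). The difference between the genotypes in this response was -0.19 (adjusted p = 0.751).

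Psme3 (PA28γ), the nuclear relative of that ring, read 9.53, 9.15 and 9.79 in Atf6a-/- TM against 8.14, 8.83 and 8.81 in Atf6a-/- vehicle livers, and 9.31, 9.28 and 9.23 in wild-type TM against 8.0, 8.79 and 8.35 in wild-type vehicle livers. The vehicle livers were spread widely, yet none reached a TM liver of its genotype. The change was 0.90 (SE 0.22, 1.86-fold, adjusted p = 0.0100) in Atf6a-/- and 0.89 (SE 0.22, 1.85-fold, adjusted p = 0.0146) in wild-type animals. A second probeset was called as well, at 0.77 (adjusted p = 0.00148) and 0.73 (adjusted p = 0.00296), and the third was dim, with a mean level of 3.77. With the mean of its probesets Psme3 was under the fold threshold, at 0.53 (adjusted p = 0.0133) and 0.58 (adjusted p = 0.0117). The wild-type call of the brightest probeset rested on wild-type vehicle animal 1, without which it was 0.70 (adjusted p = 0.0682). Psme4 (PA200), a large nuclear activator, differed by -0.10 (adjusted p = 0.559) and -0.15 (adjusted p = 0.482), with overlapping groups.

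**Figure D4:**
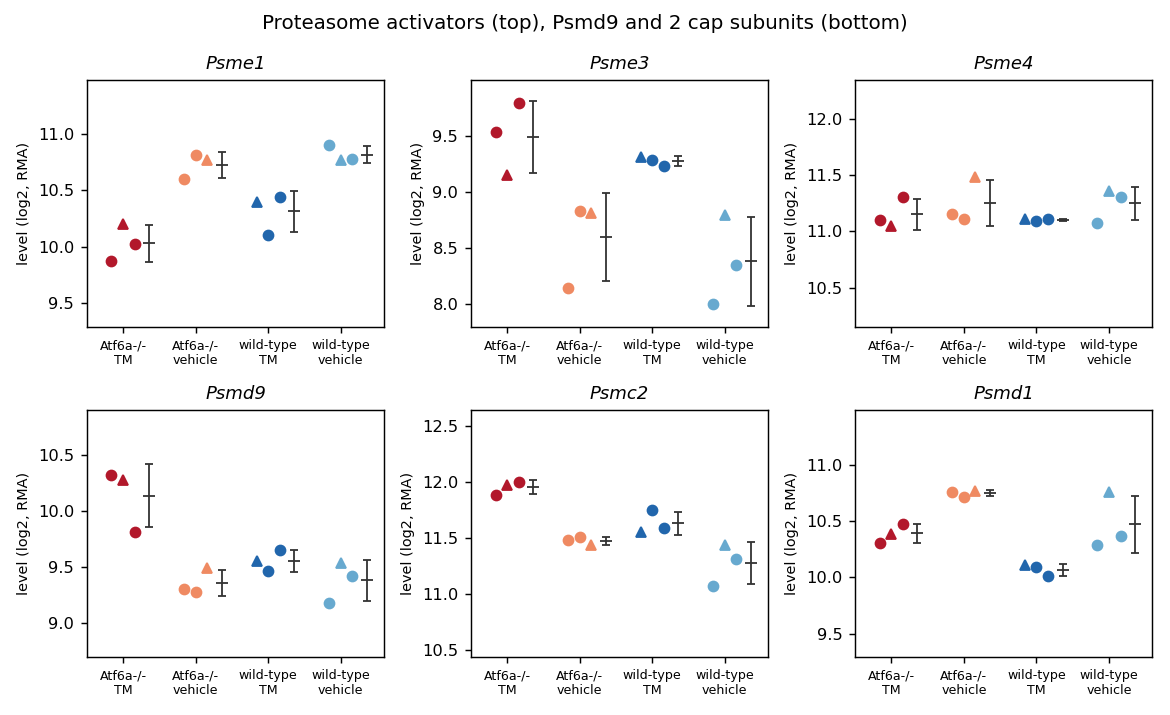
Levels (log2 RMA, vertical axis) in each liver of the activators Psme1, Psme3 and Psme4 and of the cap-related genes Psmd9, Psmc2 and Psmd1, by group. Bars give the mean ± SD (n = 3), and triangles mark the arrays with Y-linked signal. Psme1 is lower and Psme3 higher in all TM livers than in the vehicle livers of the same genotype, and Psmd9 lies at 9.81 to 10.32 in Atf6a-/- TM livers and at 9.46 to 9.65 in wild-type TM livers.

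The constitutive core held no called gene by limma. Its median was -0.17 in Atf6a-/- and -0.14 in wild-type animals, and -0.082 without Atf6a-/- TM animal 1 and -0.087 without wild-type vehicle animal 2. Of its 14 genes, 78.6% lay below 0 in either genotype, beside 64.1% and 60.6% of all genes, and this is not read as a direction of the core. The 7 alpha subunits (Psma1 to Psma7), which form the outer rings and the gate, had a median of -0.18 in Atf6a-/- and -0.20 in wild-type animals. All 7 lay below 0 in both genotypes, except that 1 lay above 0 in Atf6a-/- animals under quantile normalization, under cyclic loess normalization and without the arrays with Y-linked signal. In this group 3 passed the p threshold alone in 1 genotype, below the fold threshold. Psma5 differed by -0.34 (adjusted p = 0.0235) in Atf6a-/- and -0.29 (adjusted p = 0.0644) in wild-type animals, Psma2 by -0.26 (adjusted p = 0.0480) and -0.20 (adjusted p = 0.177), and Psma1 by -0.18 (adjusted p = 0.198) and -0.31 (adjusted p = 0.0386). The 7 constitutive beta subunits had medians of -0.15 and -0.077. Psmb3, a structural subunit of the beta ring, had the widest difference of them at -0.36 (adjusted p = 0.0679) in Atf6a-/- animals, beside -0.081 in wild-type animals. A second Psmb3 probeset, singled out after its values were seen, was called lower in Atf6a-/- animals (-0.68, adjusted p = 0.00366) and not in wild-type animals (-0.22, adjusted p = 0.362). The difference of its responses was not called by limma (-0.46, adjusted p = 0.426). Psmb2 differed by 0.070 and 0.15.

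The 17 subunits of the 19S cap were split. Psmc2, an ATPase of the base, read 11.88, 11.97 and 12.0 in Atf6a-/- TM against 11.48, 11.51 and 11.44 in Atf6a-/- vehicle livers, and 11.55, 11.75 and 11.59 in wild-type TM against 11.07, 11.44 and 11.31 in wild-type vehicle livers. The TM livers lay above the vehicle livers of their genotype, by 0.47 (1.5-fold not reached, adjusted p = 0.00426) and 0.36 (adjusted p = 0.0290). Psmd8, a lid subunit, differed by 0.43 (adjusted p = 0.00751) and 0.38 (adjusted p = 0.0211). Psmd1, the large scaffold of the base, leaned the other way. It read 10.31, 10.39 and 10.48 in Atf6a-/- TM against 10.76, 10.72 and 10.77 in Atf6a-/- vehicle livers, and 10.11, 10.09 and 10.01 in wild-type TM against 10.29, 10.76 and 10.37 in wild-type vehicle livers. The TM livers were the lower ones in both genotypes, by -0.36 (adjusted p = 0.0346) and -0.40 (adjusted p = 0.0278). Psmc3, another ATPase, differed by -0.28 (adjusted p = 0.0300) and -0.12 (adjusted p = 0.433). The medians of the 6 ATPases were -0.081 in Atf6a-/- and 0.068 in wild-type animals, and those of the 11 other cap subunits 0.022 and 0.00079. Quantile normalization turned the sign of 3 of these 4 medians, and none is read as a direction.

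Taken over the 31 standard core and cap subunits, the 95% intervals of the TM change all lay within 1.62-fold of no change in Atf6a-/- and within 1.57-fold in wild-type animals. By limma 9 and 6 of them had an unadjusted p under 0.05, and 6 and 4 an adjusted p under 0.05, with differences from -0.40 to 0.47. These shares, 29.0% and 19.4% at the unadjusted and 19.4% and 12.9% at the adjusted p, stand beside 46.7% and 35.6%, and 35.1% and 24.0%, of all genes.

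Among the chaperones that build the cap, Psmd9 had the smallest p of all members for the difference between the genotypes in the response to TM. Psmd9 (p27), which escorts ATPases into the base, read 10.32, 10.28 and 9.81 in Atf6a-/- TM livers and 9.30, 9.28 and 9.49 in Atf6a-/- vehicle livers. It read 9.55, 9.46 and 9.65 in wild-type TM livers and 9.18, 9.54 and 9.42 in wild-type vehicle livers. The Atf6a-/- TM livers stood above all other livers, and the wild-type groups overlapped. The change was 0.78 (SE 0.14, 1.71-fold, adjusted p = 0.00129) in Atf6a-/- animals, and 0.17 (SE 0.14, adjusted p = 0.484) in wild-type animals. Its response differed between the genotypes by 0.60 (SE 0.20, unadjusted p = 0.0106), which did not pass after adjustment (adjusted p = 0.227). Dimmer Psmd9 probesets, at mean levels of 6.32 and 4.79, differed by 0.10 and -0.017 in Atf6a-/- animals, and the mean over all Psmd9 probesets was 0.29 (adjusted p = 0.0860). Psmd5 differed by 0.25 (adjusted p = 0.177) in Atf6a-/- and -0.016 (adjusted p = 0.961) in wild-type animals, and Psmd10 (gankyrin) by -0.24 (adjusted p = 0.0974) and -0.22 (adjusted p = 0.164).

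The core genes known for use in testis (Psma8) and thymus (Psmb11) were dim. Psma8 had a mean level of 4.33 and Psmb11 of 4.18, at percentiles 23.9 and 21.1 of all genes, and neither was called. Of the non-subunits caught by the symbol rule, Psme3ip1, whose protein binds PA28γ, gave the largest change of all 44 genes. It read 10.01, 9.92 and 10.17 in Atf6a-/- TM against 8.66, 8.68 and 8.69 in Atf6a-/- vehicle livers, and 10.09, 10.29 and 9.98 in wild-type TM against 8.58, 8.81 and 8.73 in wild-type vehicle livers. Each TM liver was more than doubled over the vehicle livers of its genotype, with 2.56-fold (adjusted p = 2.2e-06) and 2.67-fold (adjusted p = 2.0e-06) on average. Psmc3ip, a factor of meiotic recombination, was dim at 5.30 and differed by -0.16 (adjusted p = 0.293) and -0.20 (adjusted p = 0.261).

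Set side by side, the TM responses of the 2 genotypes, which share no array, ran along with a Pearson correlation of 0.911 and a Spearman correlation of 0.818 over the 42 members, beside 0.833 and 0.751 over all genes. These describe genes within the same 12 arrays, and genes are not independent replicates. No member was called in the difference between the genotypes in the response to TM, where 1.06% of all genes were called higher and 0.748% lower. By limma 1 member, Psmd9, had an unadjusted p under 0.05 there. For the inducible subunits the difference was -0.076 (Psmb8, adjusted p = 0.949), -0.018 (Psmb9, adjusted p = 0.991) and -0.14 (Psmb10, adjusted p = 0.90).

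Under TM, 0 members were called between Atf6a-/- and wild-type livers, beside 2.89% of all genes called higher and 1.53% called lower in Atf6a-/- livers. By limma 7 members (15.9%) had an unadjusted p under 0.05, beside 18.7% of all genes, and the methods' t-test called 0. The genotypes did not overlap for 8 members that lay higher and 3 that lay lower in Atf6a-/- livers, beside 13.4% and 10.2% of all genes. Psmd9 came nearest, at 0.58 (SE 0.14, adjusted p = 0.0374), which is at the fold threshold without passing it. It was called at 0.75 (adjusted p = 0.00688) without Atf6a-/- TM animal 3, the lowest of its group, and at 0.60 (adjusted p = 0.0211) with array weights. Psmc2 (0.32, adjusted p = 0.124), Psmd3 (0.26, adjusted p = 0.145) and Psmd1 (0.32, adjusted p = 0.177) followed, and Psmd2 and Psmd12 had differences of 0.32 and 0.28 (adjusted p = 0.255 and 0.269), whereas Psme1 had -0.28 (adjusted p = 0.268). Over the 17 cap subunits, 5 of them among these 7, the median was 0.13 with 11 above 0. Without the probeset types that can also read related transcripts, Psmd4, Psmd12 and Psmd14 had no probeset left. Psmc6, Psmd11 and Psmd13 were then represented by dimmer probesets. The cap median over the subunits left was 0.0081, which is not over the same set as the 0.13, and no direction is read from either. Psmb8, Psmb9 and Psmb10 differed by -0.27 (adjusted p = 0.491), -0.36 (adjusted p = 0.493) and -0.13 (adjusted p = 0.832).

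Under vehicle, 0 members and 0% of all genes were called between Atf6a-/- and wild-type livers. At an unadjusted p under 0.05 limma listed 705 of all genes, among them the members Psmc5 (0.26) and Psmd1 (0.28), whose adjusted p was 1.00, and the methods' t-test called 0 members. Psmc5 had the smallest p of the members. It read 10.31, 10.28 and 10.28 in Atf6a-/- vehicle against 9.90, 10.18 and 10.03 in wild-type vehicle livers, so the Atf6a-/- livers were all the higher ones. In all, 3 members lay wholly higher and 0 wholly lower in Atf6a-/- vehicle livers, beside 4.85% and 3.68% of all genes. The differences of the cap subunits were small and mostly of 1 sign. Of 17, 16 lay above 0, whereas 49.9% of all genes lay below 0. The median was 0.12 (0.12 to 0.18 under the other scalings), which a single wild-type array moved between 0.048 (without wild-type vehicle animal 1) and 0.21 (without wild-type vehicle animal 2). The subunits were read on the same arrays, and no direction is read from them.

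Beyond the brightest probesets, Psmd13 stood out. One probeset of Psmd13, a lid subunit, with a mean level of 6.69, was lower after TM in Atf6a-/- animals (-1.27, adjusted p = 8.9e-06). It differed in wild-type animals by less (-0.50, adjusted p = 0.0103), and the difference of responses was called (-0.77, adjusted p = 0.0496), as was that between the genotypes under TM (-0.67, adjusted p = 0.00669). The brightest Psmd13 probeset, at 8.91, differed by -0.14 and -0.012 in the TM comparisons. This probeset was singled out after its values were seen, and which part of the transcript it reads was not analysed. No gene had probesets called in opposite directions among the 91 member probesets.

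From the list of assembly and maturation, 7 of 8 were measured, and 2 were called higher by TM in either genotype, with 1 called lower in Atf6a-/- animals. Psmg2 (PAC2), which pairs with Psmg1 to seed the alpha ring, read 10.24, 10.24 and 10.74 in Atf6a-/- TM against 9.17, 9.14 and 9.39 in Atf6a-/- vehicle livers, and 10.17, 10.02 and 10.24 in wild-type TM against 9.17, 9.51 and 9.46 in wild-type vehicle livers. Psmg3 (PAC3), of the companion pair, read 10.44, 10.26 and 10.48 in Atf6a-/- TM against 9.10, 8.99 and 9.37 in Atf6a-/- vehicle livers, and 10.26, 10.03 and 10.16 in wild-type TM against 9.16, 9.49 and 9.21 in wild-type vehicle livers. Both were raised in every TM liver over all vehicle livers. Psmg2 rose by 1.17 (adjusted p = 7.6e-05) in Atf6a-/- and 0.76 (adjusted p = 0.00267) in wild-type animals, and Psmg3 by 1.24 (adjusted p = 1.6e-05) and 0.87 (adjusted p = 3.6e-04). With the mean of a gene's probesets the wild-type changes of 0.46 (Psmg2, adjusted p = 0.0174) and 0.41 (Psmg3, adjusted p = 0.0243) were under the fold threshold, and Psmg3 was called at 0.59 (adjusted p = 0.00223) in Atf6a-/- animals. Their partners did not follow, with Psmg1 at -0.19 and -0.26 and Psmg4 at -0.18 and -0.090, none called. Pomp, which matures the beta ring, was lower in Atf6a-/- animals (-0.59, adjusted p = 0.00309) and at -0.32 (adjusted p = 0.0898) in wild-type animals. It was named after its value was seen.

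Of the receptors and deubiquitinases that dock at the cap, 10 of 12 were measured and 2 were called higher by TM in each genotype. Zfand2a (AIRAP), a stress-inducible partner of the cap, rose by 1.13 (adjusted p = 8.5e-04) and 0.95 (adjusted p = 0.00393), or by 0.72 with the mean of its probesets in Atf6a-/- animals. Zfand5, which activates the proteasome, rose by 0.97 (adjusted p = 5.8e-05) in Atf6a-/- animals, or by 0.60 with the mean of its probesets, and was under the fold threshold in wild-type animals (0.42, adjusted p = 0.0249). Ubqln2, a shuttle that carries ubiquitinated clients to the proteasome, read 10.09, 9.76 and 10.01 in Atf6a-/- TM against 9.94, 9.78 and 9.97 in Atf6a-/- vehicle livers, and 10.76, 10.84 and 11.08 in wild-type TM against 9.92, 9.71 and 10.12 in wild-type vehicle livers. Only the wild-type TM livers stood out, the other 3 groups lying together. It rose by 0.97 (adjusted p = 2.1e-04) in wild-type animals, differed by 0.055 (adjusted p = 0.787) in Atf6a-/- animals, and the difference of the responses was -0.92 (SE 0.18, adjusted p = 0.0332), a call lost without any 1 of 9 of the 12 livers (adjusted p from 0.0526 to 0.0927). With the mean of the Ubqln2 probesets the wild-type change was 0.47 and the difference of responses -0.43, neither called. Its relative Ubqln4 was higher in Atf6a-/- than in wild-type livers under TM (0.59, adjusted p = 0.00543), a call just past the fold threshold that was lost under quantile normalization (0.51) and cyclic loess normalization (0.54) and without Atf6a-/- TM animal 1 (0.50), wild-type TM animal 2 (0.58) or wild-type TM animal 3 (0.56).

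**Figure D5:**
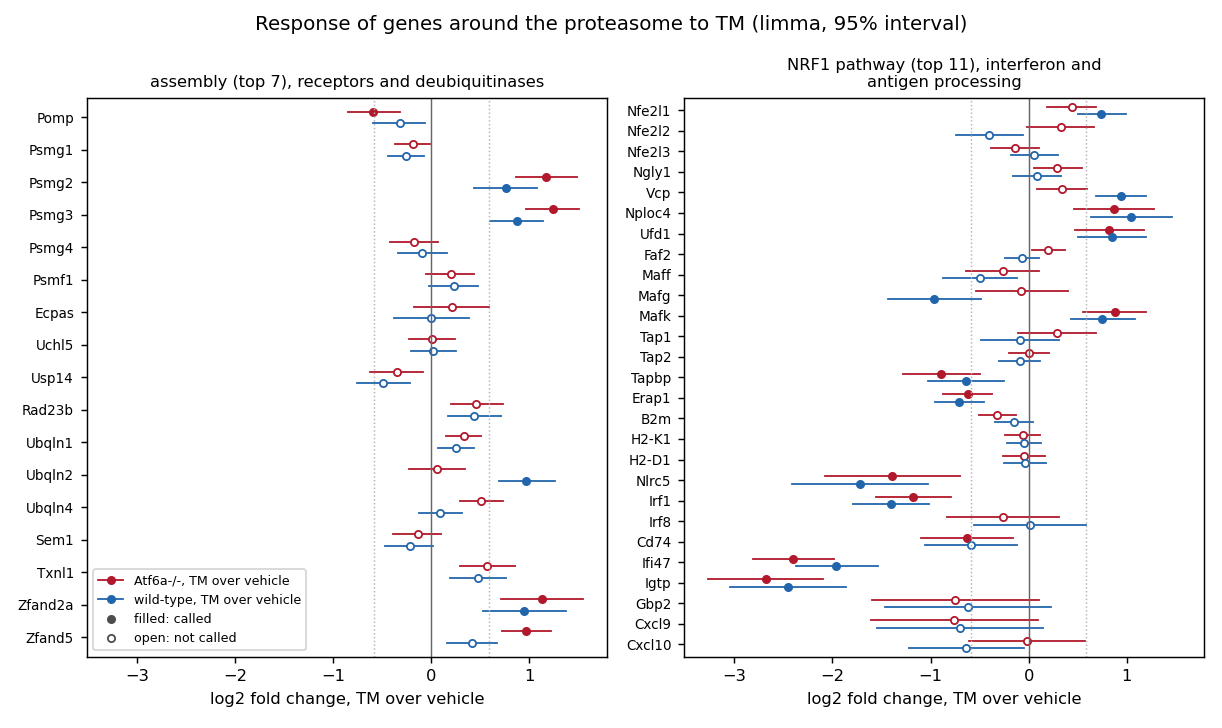
Response to TM of the listed genes around the proteasome, as log2 fold change (TM over vehicle, horizontal axis) with the 95% interval of limma, in Atf6a-/- animals (red) and wild-type animals (blue), 3 animals per group. Filled points were called and open points were not. Psmg2 and Psmg3 lie at 0.76 to 1.24 and the interferon-induced genes Igtp and Ifi47 at -2.68 to -1.96, and Ubqln2 is at 0.97 in wild-type and 0.055 in Atf6a-/- animals.

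NRF1 (Nfe2l1) is an ER-bound transcription factor known to raise proteasome genes when the proteasome is inhibited, after extraction from the membrane by the ATPase VCP (Vcp) with its cofactors Ufd1 and Nploc4. Of 12 genes of this pathway 11 were measured. TM was followed by 3 higher and 0 lower calls in Atf6a-/- and by 5 higher (4 without the arrays with Y-linked signal) and 1 lower call in wild-type animals. Vcp read 12.10, 12.30 and 12.31 in Atf6a-/- TM against 11.78, 11.90 and 12.02 in Atf6a-/- vehicle livers, and 12.57, 12.80 and 12.60 in wild-type TM against 11.55, 11.92 and 11.68 in wild-type vehicle livers. TM livers were above vehicle livers in both genotypes, with 0.34 (adjusted p = 0.0491, under the fold threshold) and 0.94 (adjusted p = 1.1e-04), and the difference between these responses was -0.61 (adjusted p = 0.120). With the mean of the Vcp probesets the changes were 0.75 (adjusted p = 0.00593, called) and 1.69 (adjusted p = 3.35e-05), and Vcp was called lower in Atf6a-/- than in wild-type livers under TM (-0.78, adjusted p = 0.0219). Ufd1 rose by 0.82 (adjusted p = 0.00220) and 0.85 (adjusted p = 0.00248), or by 1.43 and 1.48 without the probeset types that can also read related transcripts, and Nploc4, named after its value was seen, by 0.87 and 1.04. Nfe2l1 itself rose by 0.74 (adjusted p = 5.6e-04) in wild-type animals and was under the fold threshold at 0.44 (adjusted p = 0.0123) in Atf6a-/- animals.

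Small MAF proteins pair with NRF1 on DNA. Mafk rose by 0.88 (adjusted p = 8.1e-04) and 0.75 (adjusted p = 0.00335), the second under the fold threshold at 0.57 without the arrays with Y-linked signal, whereas Mafg fell by 0.96 (adjusted p = 0.00762) in wild-type animals and differed by -0.074 in Atf6a-/- animals. The difference between the genotypes in the Mafg response was 0.89 and was not called. Mafg read 9.05, 9.50 and 8.71 in Atf6a-/- TM livers against 8.43, 7.69 and 7.75 in wild-type TM livers, a difference of 1.13 (adjusted p = 0.0105) that rested on single wild-type TM livers, with 1.00 (adjusted p = 0.0620) without animal 2 and 1.02 (adjusted p = 0.0552) without animal 3. Nfe2l2 (NRF2), the oxidative stress relative of NRF1, was 0.65 higher in Atf6a-/- than in wild-type livers under TM (adjusted p = 0.0370), and the adjusted p was over 0.05 without any 1 of several livers (0.169 without wild-type TM animal 2) and under quantile normalization (0.0584). Only 1 of 6 genes of ubiquitin and its activation had a probeset of its own, Uba6, which differed by 0.46 (adjusted p = 0.0603) in Atf6a-/- and 0.30 (adjusted p = 0.283) in wild-type animals. It was called in Atf6a-/- animals without the arrays with Y-linked signal (0.68, adjusted p = 0.00798) and without Atf6a-/- vehicle animal 3 (0.60, adjusted p = 0.0297).

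The promoter windows of RefSeq (GRCm38.p6, 250 bases before to 50 after the start) held 37 of the 44 members and 35 of the 42 in a class. The antioxidant response element TGACNNNGC, the motif that NRF1 and NRF2 bind with a small MAF, was found on either strand in 6 of 35 (17.1%), beside 14% of all genes with a window. Matches on the strand of the gene in a core gene and in a cap-chaperone gene, whose levels are printed above, are shown with the motif in capitals.
Psmb5 (chr14:54618024-54618052, minus strand): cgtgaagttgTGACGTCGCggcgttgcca
Psmd9 (chr5:123228149-123228177, + strand): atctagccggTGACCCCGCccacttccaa
The others were in Psmb6, Psmc6, Psmd12 and Psme4. That of Psmb6, also on the strand of the gene, lay nearer to the start than that of Psmb5. The CCAAT box (CCAAT) was in 14 of 35 (40%), beside 41.1% of all genes, and in 6 of 11 core genes and 4 of 14 cap genes. The ER stress response element, to which ATF6α binds, was in 0 of 35, beside 0.137% of all genes, and the C/EBP-ATF response elements TGATGCAAT and TGATGAAAC were in 0, beside 0.222% and 0.229%. The interferon-stimulated response element GAAANNGAA was in 6 of 35 (17.1%), beside 9.76%, and in none of Psmb8, Psmb9 and Psmb10. The genes with it were Psmb3, Psmb4, Psmc2, Psmd4, Psmd9 and Psme1. Of these, Psmb3, Psmb4, Psmc2 and Psmd4 were not called after TM on their brightest probesets. The match of Psme1 lay 11 to 19 bases after the start. The GAS motif was in 2 (5.71%), Psmb8 and Psmd2, beside 9.55% of all genes. The motifs were searched without allowing mismatches, and a match is a stretch of letters, not a site shown to be bound.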

How the data were processed

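The deposited values of 12 arrays, 1 mouse liver each, were log2 expression values that the authors made with RMA in the affy package (background correction, quantile normalization across arrays, summary per probeset), per the labels, which also name limma. Versions were not given in the sources used here. They were used as deposited. Of 45101 probesets, 64 controls were left out. Platform annotation gave 34945 of the remaining 45037 to 1 gene, 932 to several and 9160 to none. With R 4.3.3 and limma 3.58.1 (lmFit and eBayes, with 8 degrees of freedom from the residuals and 4.25 from the prior) the 12 arrays were fitted together with a mean for each group, each contrast was Benjamini-Hochberg adjusted over all probesets, and intervals are 95%. The step was tested on simulated data first. Figures were drawn with matplotlib 3.10.9.

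The members and gene lists were chosen with earlier results of these data known. Named genes were the inducible beta subunits with their partners, the activators, the 2 members of each other class with the largest moderated t in each TM contrast, the smallest p between genotypes, and from each gene list the 2 with the largest t per TM contrast and any called between genotypes. Hspa5, Ddit3, Herpud1, Creld2 and Atf6 served as a check of the labels. All 5 were called higher by TM, by 1.31 to 6.13 in Atf6a-/- and 1.74 to 6.79 in wild-type animals. Under TM, Ddit3 (-1.00) and Creld2 (-3.15) were called lower in Atf6a-/- than in wild-type livers. Other genes were named with their values known, also where this is not said beside them. Among these are Psme3ip1, Psmd2, Psmd3, Psmd5, Psmd12, Hnf4a, Ptprc, Kdr, Lrat and Krt19. Each limma p sets a difference against a spread between animals that is pooled over the 4 groups and moderated by the prior. Precision is limited by the 3 animals per group. With 3 against 3 no exact permutation p can be under 0.1, so none was used. Medians and counts over classes carry no test. Alternatives covered other scalings, a replicate block, array weights, leaving out arrays, dim probesets, thresholds, the variance prior, probeset choice and the test.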

Additional observations from a re-analysis of the deposited data

Results flagged for a closer look

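Within the gene lists, 2 genes answered TM differently in the genotypes by limma's test of the difference of responses. For Ubqln2 it was -0.92 (Benjamini-Hochberg adjusted p = 0.0332), from 0.055 in Atf6a-/- and 0.97 in wild-type animals. That call was lost without 9 of the 12 arrays in turn (-0.98 to -0.82, adjusted p from 0.0526 to 0.0927), without the 4 arrays with Y-linked signal (-0.75, adjusted p = 0.104) and with the mean of its probesets (-0.43). For Creld2 the difference was -2.91 (adjusted p = 0.000465), from 1.96 in Atf6a-/- and 4.87 in wild-type animals. No cause was tested for either. No member of the proteasome genes met a limit of this kind on its brightest probeset.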

How the results depend on the processing

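Gene by gene, only the genes named by the rule and those of the label check were followed through the alternatives, and none of their calls turned direction. Other called genes, such as Psme3ip1, Irf1, Nlrc5, Pomp and Lrat, were not followed in this way. Of the values of the named proteasome members under all alternatives together, 601 of 619 kept their side of the threshold for TM in Atf6a-/- animals (12 lost it, 6 gained it). So did 602 of 619 for TM in wild-type animals (12 lost, 5 gained), 616 of 619 between the genotypes under TM (3 gained), all 619 under vehicle and all 571 for the difference of responses. Most of these values belong to members not called in the main fit, which kept their side by staying uncalled. The losses fell on the few called members. They were Psmb8, Psmb9, Psme1, Psme3 and Psmd9 in Atf6a-/- animals and Psmb8, Psmb9, Psmb10 and Psme3 in wild-type animals. Of the values of the other named genes, 506 of 518 kept theirs for TM in Atf6a-/- animals (4 lost, 8 gained), 498 of 518 in wild-type animals (19 lost, 1 gained), 485 of 518 between the genotypes under TM (28 lost, most of them of Nfe2l2, Ubqln4, Mafg and Ubqln2, and 5 gained), 515 of 518 under vehicle (3 gained, all Atf6) and 460 of 478 for the difference of responses (12 lost, all Ubqln2, and 6 gained, of Ddit3 and Atf6). For TM in Atf6a-/- animals, 3 members higher and 4 lower became 5 and 8 without a fold threshold, 1 and 1 with the threshold raised to 2-fold, 1 and 2 by the methods' t-test with adjustment, and 1 was higher with the mean of a gene's probesets. For TM in wild-type animals, 2 higher and 3 lower became 4 and 6, 1 and 0, and 1 and 0 under the same settings, and 1 was higher with the mean of probesets. Between the genotypes under TM, 0 higher became 1 (Psmd9) without a fold threshold or with array weights. Without the probeset types that can read related transcripts, Psmd13 was represented by a dimmer probeset, which gave 1 lower call under TM and 1 in the difference of responses. The cap median between the genotypes under TM was then 0.0081, over fewer subunits. Leaving out each array in turn gave 3 to 3 higher and 4 to 4 lower for TM in Atf6a-/- animals, 1 to 2 higher and 2 to 3 lower in wild-type animals, and 0 to 1 higher between the genotypes under TM. The immunoproteasome median ranged from -1.10 to -0.85 in Atf6a-/- and from -1.13 to -0.80 in wild-type animals, and was -1.23 and -1.20 without the arrays with Y-linked signal. The cap median ranged from -0.10 to 0.052 for TM in Atf6a-/- animals and from -0.099 to 0.10 for the difference of responses. Animal numbers did not pair the samples (correlations of same-numbered animals -0.48 to 0.39), and with the number as a replicate block the counts of members stayed at 3 and 4 in Atf6a-/- and 2 and 3 in wild-type animals, 0 elsewhere. Over all probesets the replicate block gave 4754 higher and 2654 lower (4757 and 2680 without it) for TM in Atf6a-/- animals. The cause of these shifts was not tested. Dim probesets, which include Psma8, Psmb11 and Psmc3ip, limit what can be seen of those genes.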
